A study of Mus musculus with 16 samples.

Results

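The genes described here are the ligands and receptors of the vascular endothelial growth factor (VEGF) system, measured in endothelial cells that carried 6 combinations of Notch1 alleles. The members were picked by gene symbol, 9 of the 22096 symbols in the files: the ligand genes Vegfa, Vegfb, Vegfc and Pgf, the receptor genes Flt1, Kdr and Flt4, and the co-receptor genes Nrp1 and Nrp2. RNA was sequenced from CD31-positive cells sorted from whole mouse embryos at embryonic day 9.5, to ask how the dose of Notch1 affects endothelial expression. The 12/- embryos (3 libraries) carried a deleted Notch1 allele opposite an allele named 12, in which the intracellular domain of Notch2 stands in place of that of Notch1, and their endothelium is labelled as dysfunctional. The 12/vg embryos (1 library) paired the 12 allele with the vg allele, a V1744G change in Notch1 that makes the released intracellular fragment less stable, and are labelled as partly dysfunctional. The other genotypes kept a wild-type Notch1 allele and are labelled as normal: +/12, +/-, +/vg and +/+, with 3 libraries each, called the 4 normal groups here. The labels do not say how many embryos made a library, so a p-value speaks of differences between libraries, and some of their spread may be technical. They name no promoter or Cre driver, and the alleles are described as alleles of the embryo, not of its endothelium alone.

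VEGF-A, encoded by Vegfa, binds the receptor tyrosine kinases encoded by Kdr and Flt1. Kdr carries most of the growth signal in endothelium, while Flt1 binds the ligand tightly, signals weakly and is known as a decoy. VEGF-C acts mainly through Flt4, VEGF-B and placental growth factor bind Flt1, and neuropilins present VEGF to the receptors and also bind class 3 semaphorins. In zebrafish and in the mouse retina, Notch signalling is known to restrain endothelial sprouting in part by setting the levels of these receptors, and low oxygen is known to raise Vegfa and Flt1 through HIF.

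The deposited values are FPKM, fragments per kilobase of transcript scaled by the authors to the mapped fragments, and were summed over the transcripts of a gene and divided by a factor per library (scaled FPKM). Aligned sequence ran from 1.11 to 1.80 gigabases in 14 libraries and was 0.262 gigabases in the 12/vg library and 0.189 in +/- replicate 2. The 10 endothelial markers were all detected, with a summed level of 912 to 1081 scaled FPKM in the 12/- libraries and 786 to 939 in the 12 normal libraries, and 0 of 10 were called. Pecam1, the gene of CD31, averaged 78.3 scaled FPKM in 12/- and 55.5 in normal libraries (log2 difference 0.50, limma adjusted p = 0.107). Tek and Emcn went the other way (-0.10 and -0.01). The part of these levels in the results below was not tested. Of the 63 markers of other cell types, 62 matched a symbol, 29 were tested and 0 were called between 12/- and the mean of the normal groups. The summed levels of each of these 9 lists overlapped between 12/- and normal libraries. Platelet markers summed to 363 to 1530 scaled FPKM in 12/- and 251 to 2006 in normal libraries, and neural markers to 0.440 to 1.19 in 12/- and 0.476 to 3.27 in normal libraries. Hbb-bh1, an erythroid marker, averaged 106 scaled FPKM in 12/- and 30.2 in normal libraries. Its log2 difference of 1.61 was not called (limma adjusted p = 0.124). The other tested erythroid markers, Hbb-y, Hba-x and Gata1, went the other way (-0.30, -0.48 and -0.03). Prl3b1, a trophoblast marker, averaged 4.61 in 12/- and 10.2 in normal libraries (-0.97, limma adjusted p = 0.0856). In bulk RNA, fewer cells of a type and less RNA per cell cannot be told apart. The file names number the libraries in 2 separate ranges, low for 9 libraries and high for 7. All 12/-, 12/vg and +/12 libraries have low numbers and all +/+ libraries high ones, and the labels name no batch.

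In the normal groups, the receptor genes Kdr, Flt4 and Flt1 had higher medians than the ligand genes per length of transcript. Kdr had the highest median over the 12 libraries, 76.3 scaled FPKM, followed by Flt4 at 57.9, Nrp2 at 34.9, Flt1 at 28.8 and Nrp1 at 15.9. Among the ligands Vegfb had a median of 13.6 scaled FPKM, Vegfc 8.25, Vegfa 0.828 and Pgf 0.311. Only 3 steps of this order had ranges that did not overlap, namely Flt4 above Nrp2, Flt1 above Nrp1 and Vegfc above Vegfa. The lowest median of these receptor genes, that of Flt1, stood above the highest ligand median, that of Vegfb. The co-receptor gene Nrp1 was closer to Vegfb: their ranges overlapped, and Nrp1 was higher in 8 of 12 libraries.

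**Figure D1:**
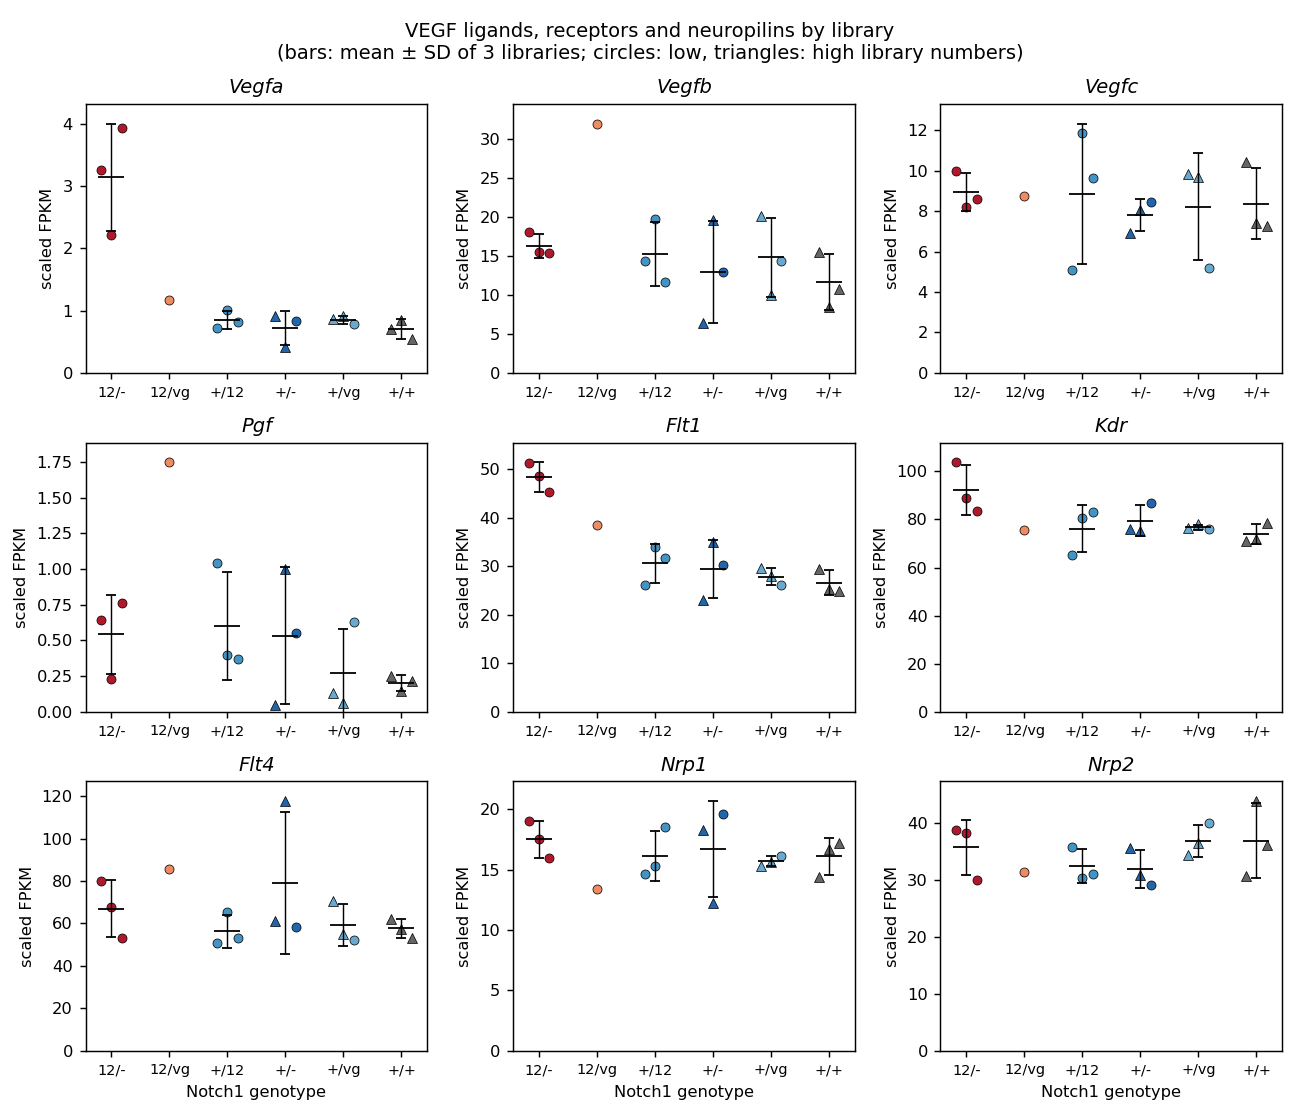
Scaled FPKM (vertical axes, linear, from 0) of the 9 genes in each of the 16 libraries by Notch1 genotype, with circles for low and triangles for high library numbers and bars for the mean ± SD of 3 libraries (bars are cut at 0, and 12/vg has 1 library and no bar). Vegfa and Flt1 are the genes whose 3 12/- libraries lie above all 12 normal libraries, at 2.22 to 3.93 and 45.3 to 51.3 scaled FPKM.

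Vegfa was higher in 12/- endothelial cells than in every normal group. It lies on chromosome 17 from 46153943 to 46169326 (mm9, minus strand), and the files split it into 6 RefSeq transcripts. The 12/- libraries had 3.26, 2.22 and 3.93 scaled FPKM. The 12/vg library had 1.17. In the normal groups the values were 0.723, 1.00 and 0.822 in +/12, 0.912, 0.411 and 0.834 in +/-, 0.860, 0.907 and 0.786 in +/vg, and 0.712, 0.852 and 0.543 in +/+. Each 12/- library thus exceeded each normal library, and the 12/vg library lay between both sets. The means were 3.14 ± 0.864 (SD, n = 3) in 12/- and 0.780 ± 0.165 (SD, n = 12) in the normal groups, a ratio of 4.02. On log2(scaled FPKM + 1), which understates changes of low genes, the difference was 1.20 ± 0.15 (SE, limma adjusted p = 0.0013, Benjamini-Hochberg over 10550 genes).

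Against single groups Vegfa was also called each time, with the same 12/- libraries in every comparison. The log2 difference was 1.14 ± 0.19 against +/12 (SE, limma adjusted p = 0.0255), 1.26 ± 0.19 against +/- (limma adjusted p = 0.00859), 1.14 ± 0.19 against +/vg (limma adjusted p = 0.0194) and 1.26 ± 0.19 against +/+ (limma adjusted p = 0.00856). Leaving out 12/- replicate 1 or 3 ended each of these 4 calls (limma adjusted p from 0.0541 to 0.202). Leaving out any +/12 library ended the call against +/12 (limma adjusted p from 0.0513 to 0.145), and any +/vg library that against +/vg (from 0.0639 to 0.0842). Fitted on the compared groups alone, none of the 4 passed (limma adjusted p = 0.172 against +/12, 0.23 against +/-, 0.0815 against +/vg and 0.0766 against +/+). With the library number range as a covariate, those against +/- (limma adjusted p = 0.0697), +/vg (0.123) and +/+ (0.231) did not pass. The call against +/12 also ended with a pseudocount of 0.1 (limma adjusted p = 0.0624). Within the low library numbers, those against +/12 (limma adjusted p = 0.196), +/- (0.383) and +/vg (0.328) did not pass. The reads behind Vegfa were few: 9347 to 17712 aligned bases in 12/-, 1008 in 12/vg, 257 in +/- replicate 2 and 3001 to 5543 in the other normal libraries. The gene passed the filter on low values, a mean FPKM of at least 1, because of its 12/- libraries. With no filter it was called all the same, with a log2 difference of 1.20 ± 0.13 (SE, limma adjusted p = 9.4e-04 over 18749 genes). Among the low library numbers alone, 3.14 ± 0.864 scaled FPKM in 12/- (SD, n = 3) stood against 0.834 ± 0.104 in 5 normal libraries (SD). These were the +/12 libraries and replicate 3 of +/- and of +/vg, with none of +/+. The log2 difference from the mean of these groups was 1.16 ± 0.17 (SE) and was not called.

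The promoter of Vegfa is shown because it is the member with the largest log2 difference. The sequences are from RefSeq on GRCm38.p6, a later build than the mm9 of the files, and each window holds the 250 bases before a transcript start. Capitals mark 2 kinds of motif on either strand: ACGTG or GCGTG, the core that HIF binds, and TGGGAA, the core that the Notch partner RBPJ binds. The upstream start has the window chr17:46032378-46032627 and an internal start 7214 bases further along has chr17:46025164-46025413, both on the minus strand and read 5′ to 3′. The starts of the mm9 transcripts are also 7214 bases apart.
Vegfa upstream start: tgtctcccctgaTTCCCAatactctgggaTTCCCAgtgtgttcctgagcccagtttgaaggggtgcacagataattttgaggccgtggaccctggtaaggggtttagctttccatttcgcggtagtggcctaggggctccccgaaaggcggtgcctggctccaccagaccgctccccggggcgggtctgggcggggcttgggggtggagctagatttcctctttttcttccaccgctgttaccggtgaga
Vegfa internal start: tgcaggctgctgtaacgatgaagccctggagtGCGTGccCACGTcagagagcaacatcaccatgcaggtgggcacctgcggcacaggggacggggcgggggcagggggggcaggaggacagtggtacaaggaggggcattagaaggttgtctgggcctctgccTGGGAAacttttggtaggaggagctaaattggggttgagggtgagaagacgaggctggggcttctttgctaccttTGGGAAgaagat
The upstream window held 2 copies of TGGGAA, both on the opposite strand, and neither HIF core. The internal window held 1 ACGTG, 1 GCGTG and 2 TGGGAA. This window lies inside the span of the transcripts from the upstream start. Its motifs can therefore be exon sequence, codons included, of those transcripts, and which of its bases are exon was not examined. Of 32851 windows of this length, 38.6% held ACGTG or GCGTG and 21.6% held TGGGAA, and among the 11 windows of the 9 members 7 held a HIF core and 3 held TGGGAA. A match describes letters in the window and says nothing of binding.

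The 6 Vegfa transcripts combine the 2 starts with 3 lengths, short, middle and long. The middle form is 132 bases (44 codons) longer than the short one and the long form 72 bases (24 codons) longer than the middle one. These stretches encode the parts by which the protein is known to bind heparan sulfate, so the short form is the most freely diffusing. The middle form from the upstream start, NM_009505, held the largest mean share, at 46.2 ± 9.21% of the summed FPKM in 12/- libraries (SD, n = 3) and 51.2 ± 18.5% in normal libraries (SD, n = 12). Its level was 1.31, 1.26 and 1.63 scaled FPKM in 12/-, against a lowest, median and highest normal value of 0.166, 0.351 and 0.768. The 12/- libraries lay above the normal ones in this form. The other middle form, NM_001110267 from the internal start, had 0.610, 0.377 and 0.623 scaled FPKM in 12/-, against normal values with a lowest below 0.001, a median of 0.0611 and a highest of 0.250, again with no overlap.

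Summed over both starts, the long forms and the short forms had lower means than the middle forms in 12/- and in normal libraries. The long form of the upstream start, NM_001025250, had 0.722, 0.393 and 0.706 scaled FPKM in 12/- and at most 0.349 in normal libraries. That of the internal start, NM_001110266, had 0.329, 0.106 and 0.264 in 12/- and at most 0.0825 in normal libraries. Both sets of long forms were apart, that of the internal start only by 0.106 against 0.0825. The share of all transcripts with sets apart was not computed. The values of the Vegfa transcripts split the few reads of 1 gene, so they are not separate results. The short forms overlapped: NM_001025257 ran from 0.0663 to 0.526 scaled FPKM in 12/- and up to 0.408 in normal libraries, and NM_001110268 from 0.0154 to 0.181 in 12/- and up to 0.116 in normal libraries. No Vegfa transcript reached a mean FPKM of 1, so none was tested alone.

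Shares of the Vegfa transcripts were tested for the 4 with a mean share of at least 5%. The middle forms together made 63.4 ± 9.06% of Vegfa in 12/- (SD, n = 3) and 62.6 ± 24.1% in normal libraries (SD, n = 12), while the long forms made 26.5 ± 5.09% in 12/- and 17.2 ± 19.6% in normal libraries. The short forms made 10.2 ± 7.25% in 12/- and 20.2 ± 21.5% in normal libraries. Transcripts from the internal start made 27.0 ± 4.46% in 12/- (SD, n = 3) and 16.4 ± 12.5% in normal libraries (SD, n = 12). No tested share differed beyond the spread between libraries, with exact permutation p-values from 0.374 to 0.684 and an adjusted p of 0.684 for each (two-sided, 455 arrangements, smallest possible p 0.0022). Among normal libraries a share could range from below 0.01% to 49.0%, as for NM_001025250, so the tests do not show that the shares were alike. In the 12/vg library 90.7% of Vegfa was assigned to that transcript, from 1008 aligned bases for the whole gene.

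**Figure D2:**
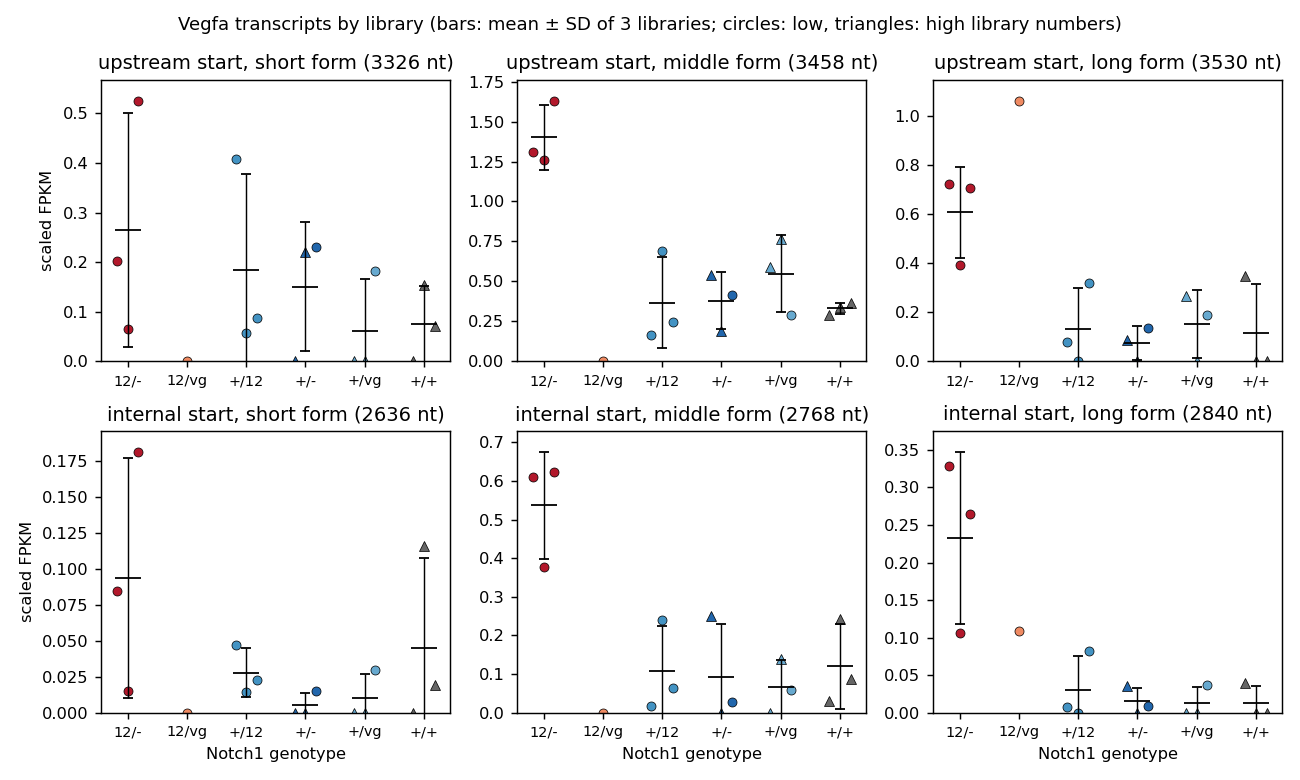
Scaled FPKM (vertical axes, linear, from 0, with a different scale in each panel) of the 6 Vegfa transcripts in each library by Notch1 genotype, with rows for the start and columns for the length, circles and triangles for low and high library numbers, and bars for the mean ± SD of 3 libraries (cut at 0). The middle and long forms of both starts show the 12/- libraries above the normal ones, while the short forms overlap.

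Vegfb, Vegfc and Pgf gave no call. Vegfb (chromosome 19, 7056962 to 7062141, mm9) had 18.1, 15.6 and 15.3 scaled FPKM in 12/- and 32.0 in 12/vg, against a lowest, median and highest normal value of 6.38, 13.6 and 20.1. The 12/- libraries lay inside the normal range and the log2 difference was 0.31 ± 0.27 (SE, limma adjusted p = 0.714). Vegfc (chromosome 8, 55162886 to 55271808) had 9.99, 8.23 and 8.58 scaled FPKM in 12/- and 8.76 in 12/vg, against 5.09, 8.25 and 11.9 as the lowest, median and highest normal value. Its difference was 0.12 ± 0.21 (SE, limma adjusted p = 0.88). Pgf (chromosome 12, 86507591 to 86518235) had a mean FPKM of 0.512 and was not tested among the 10550 genes. Its values were 0.640, 0.233 and 0.759 scaled FPKM in 12/-, 1.75 in 12/vg, and from 0.0449 to 1.04 in normal libraries. Within the normal groups Pgf ran from 0.368 to 1.04 in the 5 libraries with low numbers. In the 7 with high numbers it ran from 0.0449 to 0.254 in all but +/- replicate 2, which had 1.00. The part of the library numbers in the Pgf values was not tested.

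Among the receptors Flt1 was higher in 12/- cells. Flt1 lies on chromosome 5 from 148373772 to 148537564 (mm9, minus strand) and has 1 transcript in the files, NM_010228, so its soluble and membrane forms were not told apart. The 12/- libraries had 51.3, 48.6 and 45.3 scaled FPKM. The 12/vg library had 38.5. The normal groups had 26.2, 34.0 and 31.7 in +/12, 23.1, 35.1 and 30.3 in +/-, 29.6, 27.9 and 26.1 in +/vg, and 29.6, 25.4 and 25.0 in +/+. All 12/- libraries were above all 12 normal libraries, with the 12/vg library between them. The means were 48.4 ± 3.04 in 12/- (SD, n = 3) and 28.7 ± 3.72 in the normal groups (SD, n = 12), a log2 difference of 0.74 ± 0.12 (SE, limma adjusted p = 0.00708). In the fit of 11911 single transcripts, where 0.537% were called higher, the same Flt1 values had a limma adjusted p of 0.0119. With 1 transcript this is not a second result.

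The call of Flt1 depended on the group it was set against. The log2 difference was 0.84 ± 0.15 against +/+ (SE, limma adjusted p = 0.0235) and 0.77 ± 0.15 against +/vg (limma adjusted p = 0.0429). It was 0.65 ± 0.15 against +/12 (limma adjusted p = 0.156) and 0.71 ± 0.15 against +/- (limma adjusted p = 0.0596), which did not pass. Without +/- replicate 2, the shallowest library, the difference from +/- was 0.85 and passed (limma adjusted p = 0.0264). With no filter on low values the difference from +/vg did not pass (limma adjusted p = 0.0542). Within the low library numbers, the normal libraries were those of +/12 and replicate 3 of +/- and of +/vg, with none of +/+. The log2 difference from the mean of these groups was 0.72 ± 0.11 (SE) and was not called. The levels were 48.4 ± 3.04 scaled FPKM in 12/- (SD, n = 3) and 29.7 ± 3.46 in these 5 normal libraries (SD). With the library number range as a covariate no Flt1 call held (limma adjusted p = 0.067 against the mean of the normal groups, 0.194 against +/vg and 0.332 against +/+). Leaving out any 12/- library ended the calls against +/+ and +/vg (limma adjusted p from 0.0654 to 0.214), as did +/+ replicate 2 or 3 and any +/vg library (from 0.0976 to 0.155). Leaving out 12/- replicate 1 or 2 also ended the call against the mean of the normal groups (limma adjusted p = 0.0934 and 0.0591).

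Kdr and Flt4 did not pass the test in any comparison. Kdr (chromosome 5, 76329299 to 76374453, mm9, minus strand) had 103.7, 89.1 and 83.5 scaled FPKM in 12/- and 75.8 in 12/vg, against a lowest, median and highest normal value of 65.0, 76.3 and 86.8. The lowest 12/- library lay inside the normal range. The log2 difference from the mean of the normal groups was 0.26 ± 0.10 (SE, limma adjusted p = 0.307). Flt4 (chromosome 11, 49423181 to 49466241) had 80.1, 67.8 and 53.1 scaled FPKM in 12/- and 85.5 in 12/vg, against 50.7, 57.9 and 117.6 as the lowest, median and highest normal value. The highest was +/- replicate 2, the shallowest library. The log2 difference was 0.10 ± 0.19 (SE, limma adjusted p = 0.88).

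The ratio of Flt1 to Kdr within a library needs no scaling between libraries. It was 0.495, 0.546 and 0.542 in 12/- and 0.508 in 12/vg, against a lowest, median and highest normal value of 0.303, 0.371 and 0.467. The 12/- and 12/vg libraries were thus above all 12 normal libraries. The share of all gene pairs with ratios apart was not computed. The ratio reuses the Flt1 values given above, so it is not a separate result. The highest normal ratio, 0.467, was that of +/- replicate 2, which like the 12/vg library is shallow. The part of depth in the ratio was not tested. The ratio of Flt4 to Kdr was 0.723 ± 0.0757 in 12/- (SD, n = 3) and 0.829 ± 0.247 in the normal groups (SD, n = 12), and overlapped. These ratios are a description and were not tested.

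**Figure D3:**
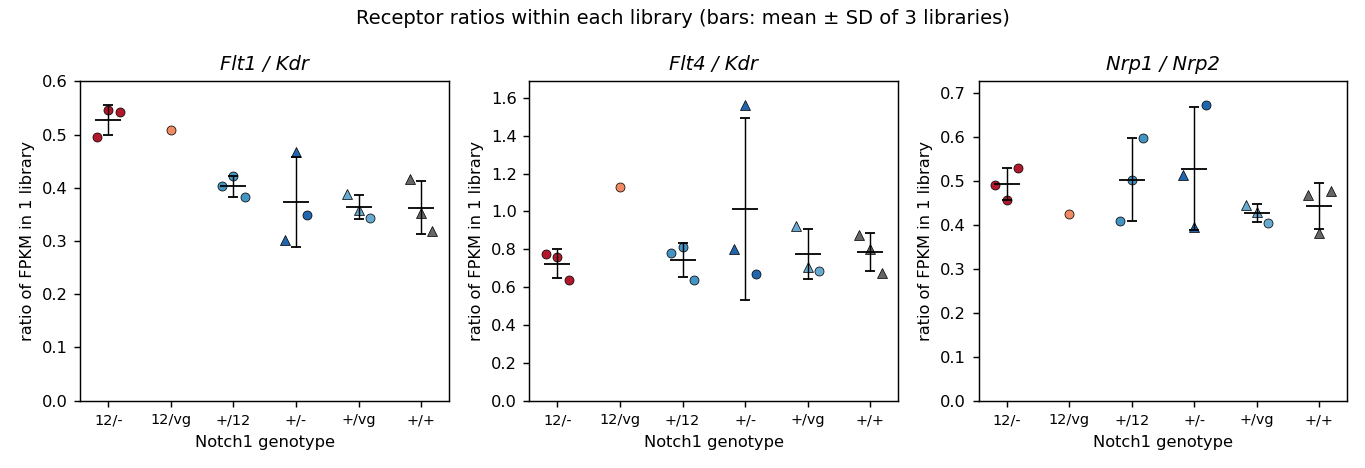
Ratio of FPKM of Flt1 to Kdr, Flt4 to Kdr and Nrp1 to Nrp2 within each library (vertical axes, linear, from 0) by Notch1 genotype, with circles for low and triangles for high library numbers and bars for the mean ± SD of 3 libraries. The Flt1 to Kdr ratio is 0.495 to 0.546 in 12/- and 0.303 to 0.467 in the normal libraries, while the other ratios overlap.

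The promoters of Flt1 and Kdr are set side by side as those of the 2 receptors of VEGF-A. Both windows are from RefSeq on GRCm38.p6 and lie on the minus strand, at chr5:147726012-147726261 for Flt1 and chr5:75978456-75978705 for Kdr, with the motifs in capitals as above.
Flt1: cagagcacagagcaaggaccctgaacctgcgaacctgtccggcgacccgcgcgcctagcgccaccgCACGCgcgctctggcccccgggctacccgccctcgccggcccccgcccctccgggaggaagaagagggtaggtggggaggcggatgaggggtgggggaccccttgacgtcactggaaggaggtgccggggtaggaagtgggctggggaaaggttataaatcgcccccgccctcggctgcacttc
Kdr: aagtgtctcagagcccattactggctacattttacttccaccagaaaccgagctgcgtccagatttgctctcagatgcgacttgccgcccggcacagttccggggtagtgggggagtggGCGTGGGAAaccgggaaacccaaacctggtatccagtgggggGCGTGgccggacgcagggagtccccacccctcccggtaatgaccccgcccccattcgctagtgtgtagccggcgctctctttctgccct
Flt1 had 1 GCGTG, on the opposite strand, from 180 to 184 bases before the start. Kdr had 2 copies of GCGTG, the farther of which, from 127 to 131 bases before the start, overlapped its only TGGGAA, from 123 to 128 bases before the start. GCGTG alone was in 28.2% of all windows, and both the receptor that was called and the one that was not held it.

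The neuropilin genes did not differ between 12/- and normal cells beyond the spread of the libraries. Nrp1 (chromosome 8, 130882973 to 131029375, mm9) had 19.0, 17.5 and 15.9 scaled FPKM in 12/- and 13.4 in 12/vg, against a lowest, median and highest normal value of 12.2, 15.9 and 19.6. The log2 difference was 0.11 ± 0.12 (SE, limma adjusted p = 0.791). Nrp2 (chromosome 1, 62749891 to 62865266) had 38.8, 38.2 and 30.1 scaled FPKM in 12/- and 31.5 in 12/vg, against 29.1, 34.9 and 43.8 as the lowest, median and highest normal value. Its difference was 0.05 ± 0.12 (SE, limma adjusted p = 0.914). All 12/- values of both genes lay inside the normal range.

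Counted over the comparisons, 8 of the 9 members were tested and none was called lower in 12/- cells, where 0% to 0.0664% of all genes were (0.0569% against +/- and 0.0379% against +/vg). Against the mean of the normal groups 2 of 8 were called higher, beside 0.72% of all genes tested, and the same 2, Vegfa and Flt1, had groups that did not overlap, beside 1.91% of all genes. Against +/12, 1 was called higher (0.209% of all genes), against +/- 1 (0.512%), against +/vg 2 (0.408%) and against +/+ 2 (0.531%). Groups that did not overlap, with 12/- higher, were found for 3 members against +/12 (7.92% of all genes), 2 against +/- (7.73%), 3 against +/vg (10.2%) and 3 against +/+ (10.4%). The third was Kdr each time. Since Vegfa passed the filter through its 12/- values, these counts are a description. With no filter and all 9 members, 2 were called higher against the mean of the normal groups, beside 0.48% of all genes, where the median log2 difference was 0.16 for the members and -0.01 for all 18749 genes.

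**Figure D4:**
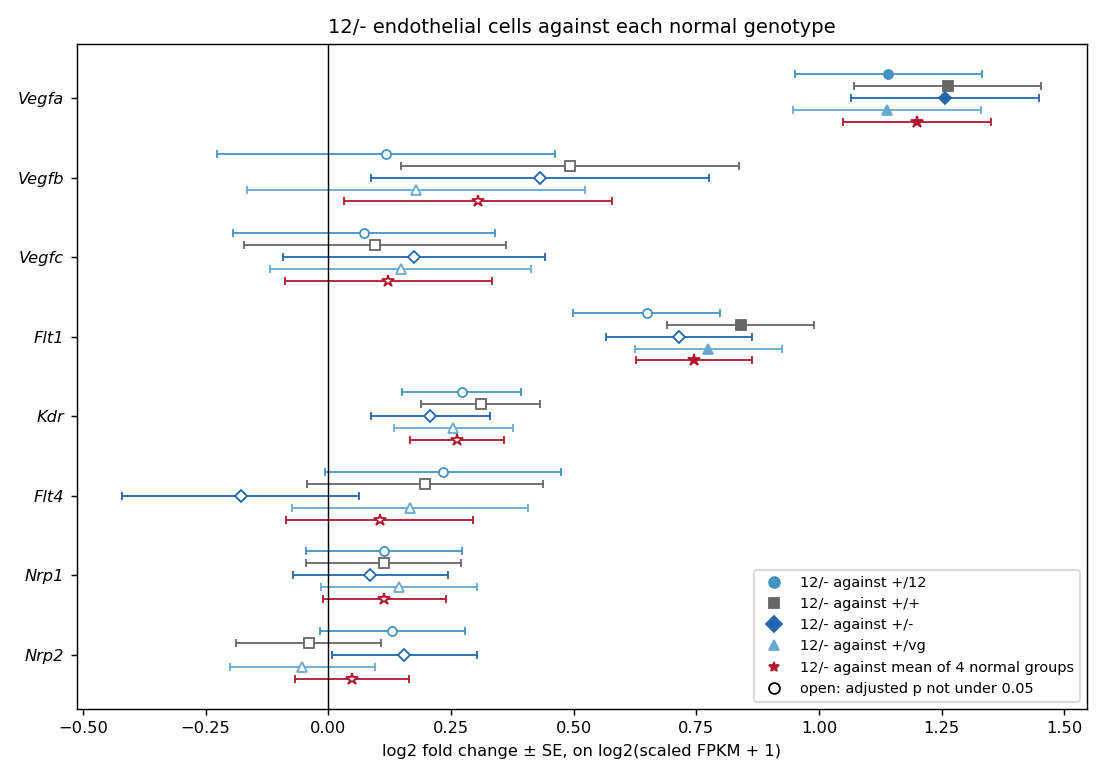
Log2 fold change ± SE of the 8 tested genes in 12/- cells against each normal genotype and against the mean of the 4 normal groups (horizontal axis, on log2(scaled FPKM + 1), with filled symbols for an adjusted p under 0.05). Vegfa is filled in all 5 comparisons, which share the 12/- libraries, and Flt1 in 3 of them.

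Among the normal genotypes no member was called. In the 5 comparisons between them (+/12, +/- and +/vg against +/+, and +/12 and +/vg against +/-), 0 of 8 members passed at an adjusted p under 0.05, as did 0% of all 10550 genes. At an unadjusted p under 0.05 the count was also 0 of 8 in each, beside 5.36% of all genes for +/12 against +/+, 7.52% for +/- against +/+, 7.51% for +/vg against +/+, 4.8% for +/12 against +/- and 8.44% for +/vg against +/-. Loss of a Notch1 allele beside a wild-type one, in +/- against +/+, gave Vegfa means of 0.719 ± 0.270 scaled FPKM in +/- and 0.702 ± 0.155 in +/+ (SD, n = 3 each). Flt1 averaged 29.5 ± 6.05 scaled FPKM in +/- and 26.6 ± 2.54 in +/+. Kdr averaged 79.4 ± 6.44 scaled FPKM in +/- and 73.8 ± 4.14 in +/+ (SD, n = 3 each). The +/- means include the shallow replicate 2, with 0.411 for Vegfa and 35.1 for Flt1. For the 12 allele beside a wild-type one, Vegfa averaged 0.850 ± 0.142 scaled FPKM in +/12 and 0.702 ± 0.155 in +/+ (SD, n = 3 each). Flt1 averaged 30.6 ± 3.98 in +/12 and 26.6 ± 2.54 in +/+. All +/12 libraries have low numbers and all +/+ libraries high ones. The allele and the number range therefore cannot be told apart in this comparison.

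Genes that act around the receptors were looked at by list, in 12/- against the mean of the normal groups. Of 18 tested modulators of VEGF receptors 1 was called, and it was higher: Clec14a, an endothelial lectin of the cell surface, had 11.2 ± 1.75 scaled FPKM in 12/- (SD, n = 3) and 6.36 ± 0.892 in normal libraries (SD, n = 12), with a log2 difference of 0.73 ± 0.13 (SE, limma adjusted p = 0.0154). Of 7 tested semaphorin and plexin partners of neuropilins 1 was called higher, Sema3f, a repulsive ligand that binds Nrp2, at 2.81 ± 0.470 scaled FPKM in 12/- (SD, n = 3) and 1.12 ± 0.346 in normal libraries (SD, n = 12). Its log2 difference was 0.85 ± 0.17 (SE, limma adjusted p = 0.0361). Neither call held when any 12/- library was left out (limma adjusted p from 0.0519 to 0.158 for Clec14a and from 0.0939 to 0.334 for Sema3f), and that of Sema3f also ended without any +/vg library or without +/+ replicate 1 or 3 (from 0.0526 to 0.0643). Both calls ended with the library number range as a covariate (limma adjusted p = 0.182 for Clec14a and 0.183 for Sema3f) and within the low library numbers (0.171 for each), and that of Sema3f with a pseudocount of 0.1 or 0.5 (0.0636 and 0.0532). Among the single groups, Clec14a was called only against +/- (limma adjusted p = 0.0406) and Sema3f against none. The kinases, phosphatases and adaptors that relay the VEGF signal gave 0 called of 35, with a median log2 difference of -0.03, and the known VEGF response genes 0 of 23, with a median of -0.08. The median of the response genes was -0.09 against +/12, 0.09 against +/-, -0.18 against +/vg and 0.23 against +/+, so its sign depended on the group. The median over all genes was -0.0050, and 0.72% were called higher and 0.0664% lower.

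Of the 9 tested HIF subunits and oxygen sensors, 2 were called higher and 0 lower against the mean of the normal groups. Of all genes, 0.72% were called higher and 0.0664% lower. The median log2 difference of this list was 0.15 against the mean and -0.0051 against +/-. Egln3, a prolyl hydroxylase that marks HIF for degradation and is itself known to be induced by HIF, had 24.9 ± 2.78 scaled FPKM in 12/- (SD, n = 3) and 5.79 ± 2.02 in normal libraries (SD, n = 12). Its log2 difference was 1.97 ± 0.19 (SE, limma adjusted p = 1.5e-04). Egln1, the main oxygen-sensing enzyme of the family, had 23.6 ± 3.36 scaled FPKM in 12/- (SD, n = 3) and 13.5 ± 2.15 in normal libraries (SD, n = 12), a log2 difference of 0.77 ± 0.13 (SE, limma adjusted p = 0.0141). Against the mean, Egln1 did not pass without 12/- replicate 1 or 2 (limma adjusted p = 0.178 and 0.0904), and within the low library numbers both genes had an adjusted p of 0.0534. Among the single groups, Egln3 was called against each and Egln1 only against +/+ (limma adjusted p = 0.0321).

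The tested genes whose log2 values followed Vegfa most closely over the 16 libraries were Egln3 (Pearson's r = 0.956), Adm (0.950), Bhlhe40 (0.937), Bnip3 (0.927) and Plod2 (0.922). Among those most like Flt1 were Pkm2 (r = 0.933), Aldoa (0.931), Fam162a (0.926) and Galk1 (0.924), and those most like Kdr were Notch4 (r = 0.833), Grhpr (0.832), Rell1 (0.826), Ubtd1 (0.824) and Vps16 (0.822). All 16 points include the 12/- libraries, which carry much of these values. Over the 12 normal libraries alone r with Vegfa was 0.697 for Egln3 and 0.130 for Adm, r with Flt1 was 0.651 for Pkm2 and r with Kdr was 0.630 for Notch4. The points share scaling and depth, and the values are a description.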

How the data were processed

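RNA of sorted embryonic endothelial cells was made into libraries by tagmentation, per the labels' protocols, and the reads were mapped to mm9 by TopHat2 2.0.9 according to the submitters' processing notes. The authors deposited, per library, FPKM and coverage values of 28107 RefSeq transcripts, with columns named as cufflinks names them, per the file headers. Read strand, read length and the version were not given in the sources used here. Coverage as deposited by the authors is mean read depth, and coverage divided by FPKM was constant within a library and gave its aligned gigabases. Whole reads could not be recovered, so no counting interval is given.

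FPKM was summed per symbol. The 211 symbols with a status other than OK were left out, and the 10550 genes averaging an FPKM of 1 or more were tested. Libraries were scaled by median ratios over 8638 genes. Values entered limma 3.58.1 (R 4.3.3, eBayes with trend, two-sided, 6 groups, 16 libraries, 10 residual degrees of freedom) as log2(scaled FPKM + 1). Calls had a Benjamini-Hochberg adjusted p under 0.05. The fit was tested on simulated data. Other steps used Python 3.11.15 and pandas 2.3.3. Transcript shares were compared with exact permutation tests.

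The labels spell the +/+ genotype in 2 ways, taken as 1 group, and give no shared replicate numbers. The 12/vg library entered the fit but no comparison. All 9 members are named, with the Vegfa and Flt1 transcripts, up to 4 called genes per list and the 5 tested genes most correlated with Vegfa, Flt1 and Kdr. A gene that this rule names is not reported here. The members and lists were chosen with earlier results of these data known. Alternatives were other scalings, pseudocounts, filters, weights and moderation, the library number as a covariate or limited to low numbers, the compared groups alone, the highest transcript of a gene, and leaving out the shallow libraries or each replicate. Sequences were matched by symbol in a RefSeq promoter table, for 9 of 9 members. Overlapping genes and near-identical copies are uncertain in these estimates.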

Additional observations from a re-analysis of the deposited data

Results flagged for a closer look

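The 12/vg library, which entered no comparison, lay above all 12 normal libraries in 4 of the 9 genes. Vegfa had 1.17 scaled FPKM in 12/vg, against 0.411 to 1.00 in the normal libraries. Flt1 had 38.5 in 12/vg, against 23.1 to 35.1. Vegfb had 32.0 in 12/vg, against 6.38 to 20.1. Pgf had 1.75 in 12/vg, against 0.0449 to 1.04. Vegfa and Flt1 lay between the normal and the 12/- libraries, while Vegfb and Pgf lay above the 12/- libraries too, which had at most 18.1 and 0.759. There was 1 such library, of 0.262 aligned gigabases, so no difference was tested. The share of all genes in which the 12/vg library lay above all 12 normal libraries was not computed. The other shallow library, +/- replicate 2, held the highest normal value of Flt1 and Flt4 (35.1 and 117.6 scaled FPKM) and the lowest of Vegfa (0.411), and had 19.6 for Vegfb and 1.00 for Pgf. The part of depth in these values was not tested.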

How the results depend on the processing

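The direction of Vegfa and Flt1 held in all comparisons of 12/- and all alternatives run. Against the mean of the normal groups the log2 difference of Vegfa ran from 1.06 to 1.87 and was called in 27 of 28 alternatives, and that of Flt1 from 0.70 to 0.82, called in 26 of 30. The number of members called, 1 against +/12, 1 against +/-, 2 against +/vg, 2 against +/+ and 2 against the mean, moved as follows. With a mean FPKM of at least 2, or with the highest transcript of each gene, Vegfa was not tested: the counts were 0 against +/12, 0 against +/-, 1 against +/+ and 1 against the mean under both, and against +/vg 1 with the filter and 0 with the highest transcript. Low library numbers alone gave 0 against +/12, +/-, +/vg and the mean, from fewer libraries, and could not be run against +/+. The library number as a covariate gave 0 against +/-, +/vg and +/+ and 1 against the mean, where Flt1 was lost. Fitting the compared groups alone gave 0 against +/12 and +/- and 1 against +/vg and +/+, Vegfa lost in all 4. Array weights gave 2 against +/12 and +/-, no scaling 2 against +/12, a pseudocount of 0.1 gave 0 against +/12, no filter 1 against +/vg, and leaving out the shallow libraries 2 against +/-. Where no construction is named, the cause was not tested.

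Leaving out each replicate gave 0 to 1 members against +/12, 0 to 2 against +/-, 0 to 1 against +/vg, 0 to 2 against +/+ and 1 to 2 against the mean. Vegfa lost its call against all 4 single groups without 12/- replicate 1 or 3, against +/12 without any +/12 replicate, and against +/vg without any +/vg replicate. The lone Flt1 transcript call became 0 with low numbers alone and 0 to 1 when replicates were left out. The share of NM_009505, -5.06 points in 12/- minus normal libraries, was 4.55 points with low numbers alone, and the other share tests kept their direction under the alternatives run. Of the uncalled members, the log2 difference of Nrp1 turned to -0.010 with the covariate, and with replicates left out Flt4 ran from -0.032 to 0.26 and Nrp2 from -0.015 to 0.16, lowest without 12/- replicate 1. Genes called overall ran from 8 to 92 against +/12, 12 to 156 against +/-, 26 to 183 against +/vg, 19 to 143 against +/+ and 27 to 249 against the mean, and from 0 to at most 31 between normal groups. No paired analysis was possible because the labels give the groups no shared replicate numbers. At 1008 aligned bases or fewer, Vegfa has the least precision in the shallow libraries.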

Other observations

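Vegfb and Nrp2 also have several transcripts, looked at after their values were seen. The longer Vegfb transcript, NM_011697 (1282 nt), had 3.34, 4.57 and 6.29 scaled FPKM in 12/-, against a median of 1.82 and a highest value of 4.07 in the normal libraries. The sets overlapped, and the log2 difference of 1.11 ± 0.41 (SE) did not pass (limma adjusted p = 0.382 over 11911 transcripts). The shorter one, NM_001185164 (1181 nt), averaged 11.6 ± 2.91 in 12/- (SD, n = 3) and 11.7 ± 4.55 in normal libraries (SD, n = 12). Of the 6 Nrp2 transcripts the most abundant, NM_001077404, averaged 21.7 ± 2.59 scaled FPKM in 12/- (SD, n = 3) and 17.3 ± 4.16 in normal libraries (SD, n = 12), and did not pass (limma adjusted p = 0.639).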
